A study of Mus musculus with 22 samples.

Results

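C1C3c and C1C3b are 2 chimeras of mouse DUX, and RNA from cells making one was compared with RNA from cells making the other. The comparison rests on 4 of the 22 samples of the series, 2 libraries labelled C1C3c and 2 labelled C1C3b, chosen by their column headings in the table that holds the chimeras. All cells were Dux-/- mouse embryonic stem cells, that is, stem cells in which Dux was knocked out, kept in 2iLIF medium. They carried a transgene for an mCherry-tagged protein, mCherry being a red fluorescent tag. Cells were given 24 hours after plating, then doxycycline at 0.25 ug/mL for 12 hours, and poly(A) RNA was sequenced. The same table holds mCherry alone, mCherry-tagged full-length DUX (FL), and the derivatives C3+14, C1+14 and C1C3a, each with 2 libraries and the same genotype, medium, dose and time. The labels do not say how the chimeras lettered a, b and c differ in sequence. The labels do not say whether replicates were separate cultures or clones. The p-values below therefore measure only the spread between libraries, pooled for each gene over the 14 libraries of the table.

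DUX binds DNA through a pair of homeodomains near its N-terminus and recruits activators through its C-terminal part. In the mouse embryo it is made briefly when the zygotic genome is switched on, and forced expression in embryonic stem cells activates genes and repeats that are otherwise read at the 2-cell stage. Many of those genes sit in tandem families of near-identical copies, among them Zscan4, Tcstv, Usp17-like, Eif1a-like and Tdpoz genes. Cells that enter this 2-cell-like state are known to lose part of the pluripotency network.

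The short stretches below lie just upstream of 4 genes lower in C1C3c that hold a DUX-type site in their RefSeq promoter, chosen from the 3 sets of near-identical copies that hold one. They are shown because they are the places in these promoters where the transcription factor's motif can be read directly. Capitals mark GATTNAATC, a core of the known DUX motif. Sequences are from RefSeq on GRCm38.p6, read 5′ to 3′ on the gene's own strand.

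Gm20765, chr10:104185363-104185419, plus strand: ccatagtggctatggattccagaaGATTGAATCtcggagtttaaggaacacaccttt

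Gm21761, chr13:119913561-119913617, minus strand: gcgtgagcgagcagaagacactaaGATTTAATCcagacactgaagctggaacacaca

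AF067061, chr13:120262946-120263002, plus strand: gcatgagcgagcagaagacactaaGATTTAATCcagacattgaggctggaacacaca

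Gm13040, chr4:143535825-143535881, plus strand: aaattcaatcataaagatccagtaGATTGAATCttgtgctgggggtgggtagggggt

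The capitals begin at position -146 relative to the annotated start of Gm20765, at -125 for Gm21761 and AF067061, and at -105 for Gm13040. GATTNAATC, searched on both strands of the 300-base promoter window, was present in 12 of the 838 promoters available for genes lower in C1C3c. None of the 545 available for genes higher in C1C3c held it, and 83 of all 27025 promoters did (0.307%). The 12 fall into 3 sets of near-identical copies plus Hydin, so they are not 12 independent sites. Only 838 of the 1618 lower genes that carry a distinct symbol had a promoter in the table, which is too few for a share over the genes to be read. An 11-base form of the DUX motif, which contains the 9 letters above and was also searched on both strands, was found in 3 of all promoters and in none of the genes tested. A match says that the letters are there and nothing about binding, and a missing match says nothing about the factor.

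The 4 libraries held 25233577 and 23251986 reads for C1C3b and 24282801 and 26166292 for C1C3c. Replicates correlated on the log2 scale with r = 0.981 for C1C3b and 0.974 for C1C3c, across the 21584 genes tested. Mitochondrially encoded genes took 5.46% and 6.17% of reads in C1C3b and 3.54% and 3.75% in C1C3c, and the 10 most abundant genes took 9.04% and 9.52% against 6.37% and 6.11%. The part of this difference in library composition in the results below was not tested. The Dux gene itself (listed as Duxf3) had 0 reads in all 14 libraries, which allows up to 3 reads in each. The table has no row for the transgene, so how much of each chimera was made was not measured here. In RNA from whole cultures, a lower level in every cell and a smaller share of responding cells cannot be told apart. Pou5f1, the gene for OCT4 and a marker of embryonic stem cells, stood at 14155 and 12594 normalised reads in C1C3b and at 10579 and 8350 in C1C3c. It does not stand for the other markers: 7 of 10 were called higher in C1C3c, as described below.

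C1C3c cells held far less RNA of 2-cell genes than C1C3b cells and more RNA of pluripotency and signalling genes such as Nanog, Esrrb, Fgf4 and Lefty2. Genes are called here at a Benjamini-Hochberg adjusted p under 0.05 in limma and a log2 fold change of at least 1 in size, on log2 of the normalised read count plus 1. Of 21584 genes tested, 2415 were called (11.2%), of which 1654 were lower in C1C3c (7.66% of genes tested) and 761 higher (3.53%). The lower calls were also the larger ones. Their median absolute log2 fold change was 2.28, with 996 genes changed at least 4-fold and 218 at least 16-fold. For the higher calls the median was 1.52, with 207 genes at 4-fold or more and 3 at 16-fold or more. The C1C3c libraries did not overlap the C1C3b libraries for 13327 genes (61.7%), so a lack of overlap alone says little.

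The balance of directions depends on the scaling. Quantile normalisation moved the median log2 fold change of all genes by 0.17, from -0.09 to 0.08, and gave 1283 higher and 1292 lower, so that 49.8% of calls were higher in place of 31.5%. The number of calls fell to 1449 without C1C3b replicate 2 and to 1458 without C1C3c replicate 1.

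**Figure D1:**
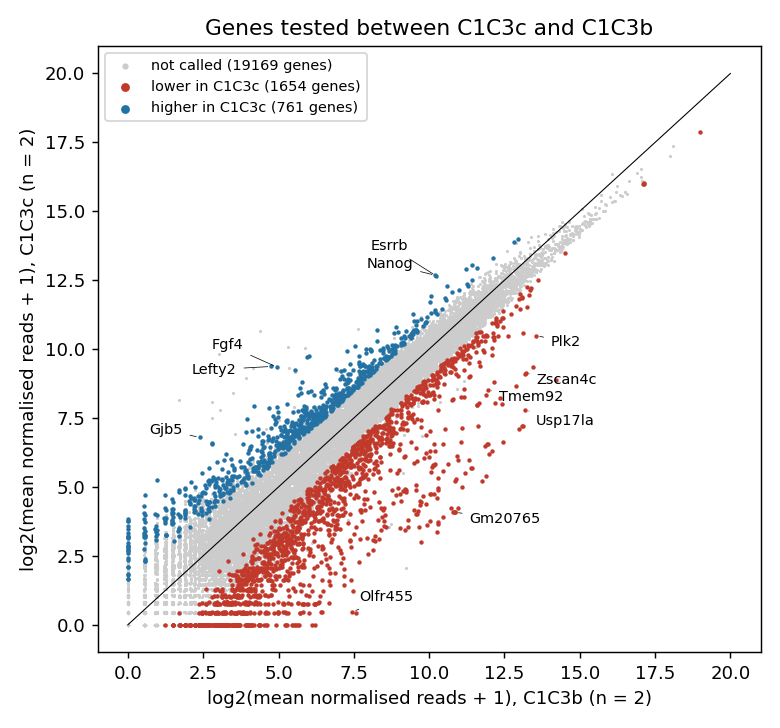
Mean normalised reads plus 1 of every gene tested, on log2 axes, in C1C3b (horizontal) and C1C3c (vertical), each the mean of 2 libraries. Red points are the 1654 genes called lower in C1C3c, blue points the 761 called higher and grey points the rest; the red points spread farther from the line of equality than the blue ones.

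The 2-cell genes were the group that separated the chimeras most. The 8 lists of 2-cell genes hold 72 genes tested, of which 51 were lower in C1C3c and 0 higher. Their median log2 fold change was -3.49, or -3.19 with the 10 genes that were at the counting floor in 1 group set at the fold that the floor allows. Summed over the lists, 2-cell genes took 0.566% and 0.555% of reads in C1C3b and 0.0666% and 0.0586% in C1C3c. The same median over all genes tested was -0.09. All but 3 of the 51 calls, 48 genes, held when any 1 of the 4 libraries was left out. Most members are near-copies of one another, and 53 of the 73 found share at least 10% of their 50-base words with another gene, so reads of one copy may be counted on the next and single copies are uncertain.

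Zscan4 genes encode zinc-finger proteins linked to telomere maintenance and mark the 2-cell-like state. Their reads summed to 69800 and 46132 normalised reads in C1C3b and to 3465 and 3072 in C1C3c, a 17.7-fold difference between the sums. All 9 were lower in C1C3c, and their log2 fold changes lay close together, from -4.42 to -3.92. Zscan4c (chromosome 7, 11005745 to 11010547) had 11390 and 7464 normalised reads in C1C3b and 601 and 514 in C1C3c. Its log2 fold change was -4.05 (standard error, SE, 0.377, limma adjusted p = 1.06e-05). Both C1C3c libraries nevertheless lay above the C1+14 libraries, at 6.58 and 1.86, and above mCherry, which had 0 reads. Full-length DUX gave 847976 and 465303 normalised reads of the same gene.

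The Usp17-like genes, which encode deubiquitinating enzymes, showed a wider gap. Their sums were 28084 and 43804 in C1C3b and 813 and 780 in C1C3c, a 45.1-fold difference, and all 5 members were lower. Usp17lb (chromosome 7, 104840257 to 104842603) had 2797 and 4116 normalised reads in C1C3b against 36.2 and 35.2 in C1C3c. That is a log2 fold change of -6.53 (SE 0.233, limma adjusted p = 5.56e-09), the lowest of the family. Usp17la went from 7412 and 11341 to 186 and 253. In C1C3b this gene stood close to C1C3a, which had 11806 and 10245, while for Usp17lb C1C3a was several times higher, at 24551 and 21401.

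All 10 Eif1a-like genes, copies related to a translation initiation factor, were lower in C1C3c, with a median log2 fold change of -4.77 and sums that differed 44.0-fold. Gm4027 (chromosome 12, 87618869 to 87622955) fell from 958 and 1147 normalised reads to 14.3 and 10.8. One listed member, Gm6763, lies in the chromosome 10 array described next and not with the others. That array is the one whose promoter is shown first above: 7 genes, Gm21293, Gm6763, Gm8764, Gm21304, Gm21312, Gm20765 and Gm4340, between 104142987 and 104196522 on chromosome 10. It took 0.0597% and 0.0527% of reads in C1C3b and 0.000539% and 0.000726% in C1C3c. In FL cells the array took 19.2% and 12.3% of reads, in C1C3a 11.2% and 13.6%, and in mCherry cells none. Gm20765 had 2014 and 1684 normalised reads in C1C3b and 13.6 and 18.3 in C1C3c, a log2 fold change of -6.78 (SE 0.276, limma adjusted p = 6.79e-09).

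Tcstv genes were lower in 7 of 7 members. Of these, 5 lie on chromosome 13, while BC061212 is on chromosome 5 and Gm16368 on chromosome 12, so the list is not 1 cluster. Tcstv3 (chromosome 13, 120316878 to 120318178) had 173 and 167 normalised reads in C1C3b and 0.754 and 3.38 in C1C3c, a log2 fold change of -5.95 (SE 0.471, limma adjusted p = 2.27e-06). Without C1C3c replicate 2 that value was -6.61. Tcstv1 was faint even in C1C3b, with 6.14 and 8.45, and had 0 reads in both C1C3c libraries, which is at least 3.40-fold lower. Its call was lost in both edgeR fits and with a pseudocount of 8. AF067061, whose promoter is shown above, went from 757 and 862 to 8.29 and 12.8, and its neighbour Gm21761 from 3692 and 3797 to 40.0 and 41.9.

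Of the Tdpoz genes, which encode proteins with TRAF and BTB domains, 3 of 5 tested were lower. Tdpoz5 had 43.0 and 56.3 normalised reads in C1C3b and 0 reads in both C1C3c libraries, at least 23.1-fold lower. The median of the 5 was -2.10 as fitted and -0.78 with the 3 genes at the floor in C1C3c set at their bounds. Only Obox3 of 6 Obox homeobox genes was called, at 2.63 and 4.69 against 0 reads, and the call was lost without C1C3b replicate 2, with a pseudocount of 8 and with C1C3b and C1C3c fitted alone.

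Of 12 Pramel and Pramef genes, which encode leucine-rich repeat proteins of the PRAME family, 4 were lower and none was higher. Pramef25 (chromosome 4, 143948580 to 143951016) went from 4068 and 5124 to 511 and 385, with a log2 fold change of -3.36 (SE 0.210, limma adjusted p = 2.85e-07). Without C1C3c replicate 1 the count was 7. The C1C3c libraries stood far apart at Pramel4, which had 0.754 in replicate 1 and 1274 in replicate 2 and was not called. The chromosome 4 gene Gm13040, whose promoter is shown above, had 2725 and 3367 in C1C3b and 285 and 212 in C1C3c.

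Among 18 tested 2-cell genes present in few copies, 12 were lower in C1C3c and 0 higher, with a median log2 fold change of -3.13. Ubtfl1, related to the ribosomal gene transcription factor UBF, had 266 and 461 normalised reads in C1C3b and 9.80 and 12.2 in C1C3c (log2 fold change -4.88, SE 0.367, limma adjusted p = 1.47e-06). Tmem92, a membrane protein gene, went from 3955 and 3965 to 485 and 241. Arg2, which encodes a mitochondrial arginase, went from 229 and 259 to 15.1 and 29.8. Duxbl1, a relative of Dux itself, went from 140 and 69.5 to 14.3 and 8.12.

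A few 2-cell genes behaved otherwise. Zfp352, a zinc-finger gene of the 2-cell embryo, was faint in both chimeras, with 55.3 and 28.2 in C1C3b and 0 and 1.35 in C1C3c, at least 19.4-fold lower. C1C3a cells had 22928 and 29459 normalised reads of it, far above both. Nelfa, which encodes a subunit of the elongation factor NELF, had 1178 and 1140 in C1C3b and 1002 and 1089 in C1C3c (log2 fold change -0.15, SE 0.160, limma adjusted p = 0.554). Both chimeras lay slightly under mCherry for this gene, at 1355 and 1323, whereas FL reached 23817 and 17265. Lmx1a, Snai1, Calcoco2, Olfr376 and Spz1 did not pass the test either.

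**Figure D2:**
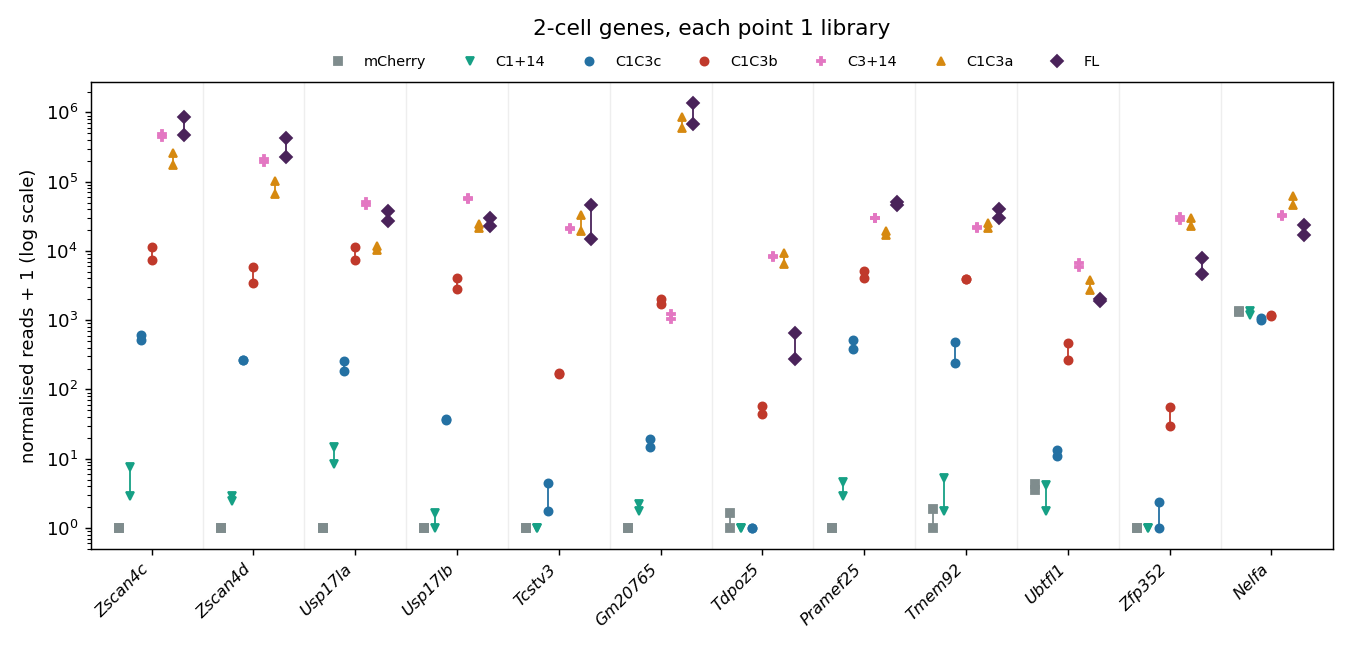
Normalised reads plus 1, on a log axis, of 12 genes of the 2-cell embryo in mCherry, C1+14, C1C3c, C1C3b, C3+14, C1C3a and FL, each point 1 library and each line joining the 2 libraries of a group. For all 12 genes both C1C3c libraries lie under the C1C3b libraries, as for Zscan4c at 601 and 514 against 11390 and 7464. For Nelfa the gap is small and the gene was not called.

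The largest drops outside the lists were also in genes at or near 0 in C1C3c. Olfr455, an olfactory receptor gene on chromosome 6, had 133 and 215 normalised reads in C1C3b and 0.754 and 0 in C1C3c, at least 81.2-fold lower. In FL it had 36.8 and 42.9, and in C3+14 154 and 188, so C1C3b stood above full-length DUX for this gene and beside C3+14. Gm6489 on chromosome 1 had 135 and 242 against 0 and 0.676, at least 87.9-fold lower. D13Ertd608e, next to the Tcstv genes on chromosome 13, went from 1239 and 1246 to 15.1 and 9.47. Rfpl4b, a RING-finger-like gene, went from a mean of 144 to 0 and 3.38.

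How far the comparison follows full-length DUX was asked with genes chosen in other libraries. FL against mCherry called 44.2% of genes tested, 5290 genes higher (24.5%) and 4241 lower (19.6%), and shares no library with C1C3b or C1C3c. Both comparisons come from the same limma fit, so they share the estimate of each gene's spread and are not fully independent. Of the 5290 genes higher in FL, 1002 were lower in C1C3c than in C1C3b (18.9%) and 25 were higher. Of the 4241 genes lower in FL, 467 were higher in C1C3c (11.01%) and 73 lower. Of the remaining 12053 genes, 579 were lower in C1C3c (4.80%) and 269 higher (2.23%). At the counting floor in both chimeras were 705 of the 5290 genes, 42 of the 4241 and 190 of the 12053. Read from the other side, 60.6% of the genes lower in C1C3c were higher in FL and 61.4% of the genes higher in C1C3c were lower in FL.

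The level of the whole FL-induced set lay lower in C1C3c than in C1C3b. Its median log2 level was 5.10 and 5.16 in the C1C3b libraries and 4.07 and 4.22 in the C1C3c libraries. C1+14 lay below both at 3.67 and 3.68. mCherry, whose libraries helped choose the genes, had 1.86 and 2.15. C3+14 stood at 6.05 and 6.18, C1C3a at 6.59 and 6.63, and FL, whose libraries also helped choose them, at 6.41 and 6.20. The set lowered by FL ran the other way, at 6.63 and 6.78 in C1C3b, 7.18 and 7.10 in C1C3c, 7.47 and 7.28 in C1+14, and 7.80 and 7.82 in mCherry. The low place of mCherry in the first set and its high place in the second are fixed by the choice of genes. With the set taken as the 4637 genes higher in FL than in C1+14, 879 were lower in C1C3c and 17 higher. The median log2 level of that set was 5.37 and 5.40 in C1C3b, 4.20 and 4.27 in C1C3c and 2.79 and 2.98 in mCherry. For the 3981 genes lower in FL than in C1+14 it was 6.75 and 6.86 in C1C3b, 7.05 and 7.13 in C1C3c and 7.38 and 7.30 in C1+14. There mCherry had 7.10 and 7.08, within the C1C3c values, so its place above C1C3c depends on how the genes were chosen.

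Set against C1+14, whose libraries both of the following comparisons share, C1C3b differed at 28.9% of genes tested and C1C3c at 7.83% (5.37% higher and 2.46% lower). For Zscan4c the log2 fold change over C1+14 was 10.95 in C1C3b and 6.90 in C1C3c, and for Nanog it was -3.11 and -0.70.

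**Figure D3:**
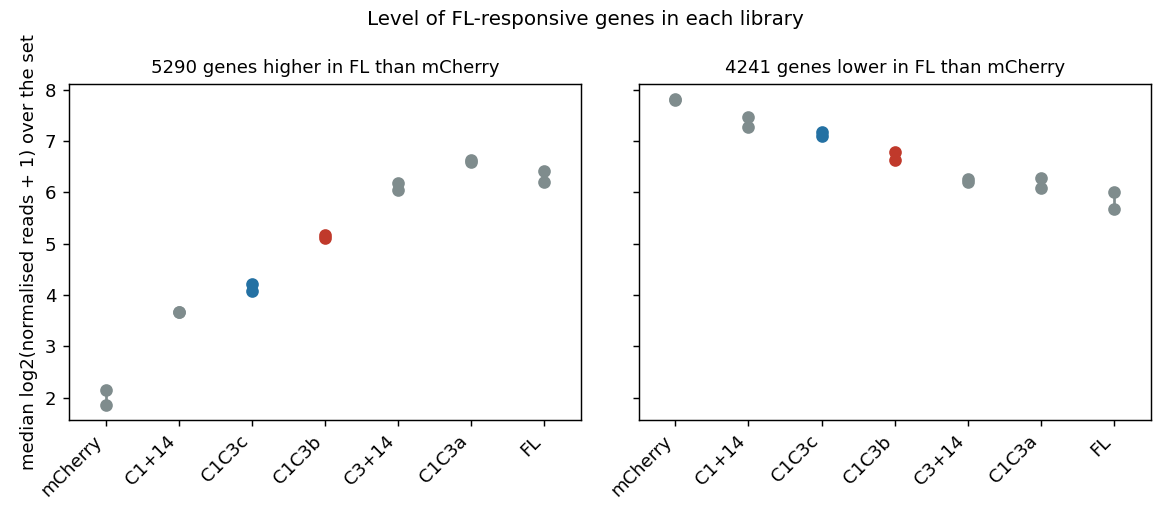
Median log2 of normalised reads plus 1, in each library, over the 5290 genes higher in FL than in mCherry (left) and the 4241 lower (right), with groups along the horizontal axis and each point 1 library. C1C3c (blue) lies between C1+14 and C1C3b (red) in both panels, at 4.07 and 4.22 on the left against 5.10 and 5.16 for C1C3b.

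Pluripotency genes ran opposite to the 2-cell genes. Of 15 genes of the naive pluripotent state, 7 were higher in C1C3c and 0 lower, with a median log2 fold change of 1.03. Of 14 general pluripotency genes, 5 were higher and 0 lower, with a median of 0.35. Nanog, a homeodomain factor of the pluripotency network (chromosome 6, 122707489 to 122714633), had 1308 and 1051 normalised reads in C1C3b and 8499 and 4602 in C1C3c. Its log2 fold change was 2.41 (SE 0.244, limma adjusted p = 2.10e-05). Nanog in mCherry cells was at 16214 and 15907, so both chimeras lay under the tag alone and C1C3c lay between.

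Esrrb, a nuclear receptor of the same network, went from 1355 and 1039 in C1C3b to 8557 and 4388 in C1C3c (log2 fold change 2.37, SE 0.249, limma adjusted p = 3.06e-05). Sox2 had 744 and 654 against 2885 and 2006, and Tbx3 502 and 446 against 2097 and 1456. In all of these genes the C1C3c libraries lay above both C1C3b libraries, and replicate 1 of C1C3c lay above replicate 2. Klf2 had 927 in replicate 1 and 275 in replicate 2 of C1C3c, against 104 and 183 in C1C3b. Its log2 fold change of 1.86 fell to 0.99 without C1C3c replicate 1, where the call was lost. Without that library 3 of the 15 naive genes were higher, in place of 7, the calls of Zfp42, Tfcp2l1 and Prdm14 being lost with that of Klf2.

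Other genes of the network did not follow. Klf4, a reprogramming factor, had 2285 and 2425 in C1C3b and 2308 and 1140 in C1C3c (log2 fold change -0.54, SE 0.358, limma adjusted p = 0.319). Pou5f1, whose values are given above, had a log2 fold change of -0.51, under the fold threshold (SE 0.152, limma adjusted p = 0.0305). Dppa2, an upstream activator of Dux, had a log2 fold change of -0.81, and Dppa3 and Dppa4 had 0.42 and 0.20, none of them called. Of the 10 stem cell markers 7 were higher in C1C3c and 0 lower, with a median log2 fold change of 1.45, and the markers not called were Pou5f1, Dppa5a and Sall4. The 7 were already counted in the naive and general pluripotency lists, so they are not a separate result. The 5 general pluripotency genes called higher were Fgf4, Lin28a, Sox2, Tdgf1 and Utf1. The call of Lin28a was lost without C1C3b replicate 1 or C1C3c replicate 2, and that of Utf1 without C1C3b replicate 2.

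Secreted signals were also higher in C1C3c. Fgf4, the growth factor that stem cells make for themselves, had 20.2 and 39.4 normalised reads in C1C3b and 877 and 424 in C1C3c, a mean 21.8-fold higher (log2 fold change 4.38, SE 0.588, limma adjusted p = 0.000248). Lefty2, an inhibitor of Nodal signalling and itself a Nodal target, went from 29.8 and 22.5 to 503 and 818 (log2 fold change 4.58, SE 0.630, limma adjusted p = 0.000306). Its paralog Lefty1 went from 75.4 and 45.1 to 860 and 799. Nodal, the ligand of the pathway, went from 256 and 275 to 1159 and 842.

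Lefty1 and Lefty2 stood higher in C1C3c than in mCherry cells as well as higher than in C1C3b. In mCherry, Lefty1 was at 87.8 and 63.5 and Lefty2 at 214 and 214, with no test of that difference reported here. C1+14 cells had 657 and 763 of Lefty1 and 986 and 1014 of Lefty2, and C1C3c against C1+14 gave log2 fold changes of 0.23 and -0.64 (limma adjusted p = 0.859 and 0.567). Of the 15 Nodal and epiblast priming genes tested, 3 were higher in C1C3c (Lefty1, Lefty2 and Nodal) and 1 was lower (Pou3f1). The median of the list was 0.03, and Fgf5, Otx2 and Dnmt3b, with log2 fold changes of -1.52, 0.47 and 0.03, did not pass the test.

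Cell junction genes held the largest rise of all genes named. Gjb5, a gap junction connexin gene (chromosome 4, 127354809 to 127358181), had 0 and 8.45 normalised reads in C1C3b and 127 and 93.3 in C1C3c. Its log2 fold change was 5.16 (SE 0.944, limma adjusted p = 0.00214), and the low C1C3b counts moved it between 3.54 and 6.78 when 1 C1C3b library was left out. Cldn4, a tight junction claudin gene, went from 4.39 and 7.51 to 136 and 51.4. Without C1C3c replicate 1, its log2 fold change was 2.95, and without replicate 2 it was 4.34. Both genes were far higher in mCherry cells, Gjb5 at 618 and 599 and Cldn4 at 1139 and 1156. Of 16 junction and keratin genes tested 4 were higher and 0 lower. Among them Cldn7 was a faint gene whose call was lost in 3 of the 4 fits with 1 library left out. Cdh1, the epithelial cadherin gene, had a log2 fold change of 0.57, under the threshold.

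**Figure D4:**
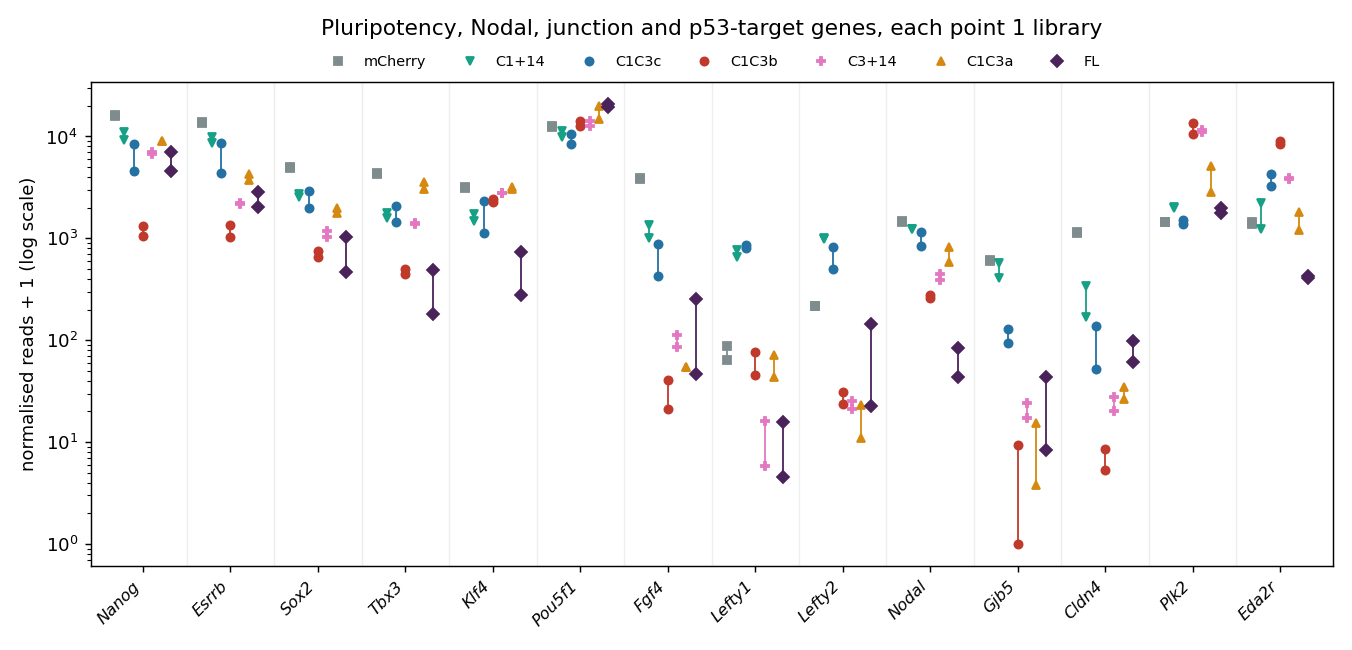
Normalised reads plus 1, on a log axis, of 14 pluripotency, Nodal pathway, junction and p53-target genes in mCherry, C1+14, C1C3c, C1C3b, C3+14, C1C3a and FL, each point 1 library. Both C1C3b libraries lie lowest for Nanog (1308 and 1051) and highest for Eda2r (8354 and 8935).

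Genes of DNA methylation moved unevenly. Of 11 tested, 5 were higher in C1C3c and 1 lower, with a median log2 fold change of 0.58. Tet1, which oxidises methylated cytosine, went from 1713 and 1379 to 6380 and 3505 (log2 fold change 1.62, SE 0.270, limma adjusted p = 0.00116), and Tet2 from 887 and 670 to 2457 and 1729. Zfp57, which protects methylation at imprinted genes, went from 564 and 443 to 2031 and 1112. The methyltransferase genes Dnmt1, Dnmt3a and Dnmt3b had log2 fold changes of 0.17, 0.58 and 0.03 and were not called. Without C1C3b replicate 2 or C1C3c replicate 2 the higher count was 3, in place of 5, since the calls of Tet3 and the cofactor gene Dnmt3l were lost.

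Of 22 known repressors of the 2-cell state, 2 were higher in C1C3c and 0 lower, with a median log2 fold change of 0.03. Over all genes tested, 11.2% were called and 3.53% were called higher, so this count is not read as a result about the list. Max, the partner of MYC and of MGA in a repressive Polycomb complex, went from 707 and 752 to 1563 and 1775 (log2 fold change 1.19, SE 0.135, limma adjusted p = 5.93e-05). Rif1, a replication timing and telomere factor, went from 2730 and 2707 to 5506 and 6114, and its call was lost without C1C3b replicate 2. The histone demethylase gene Kdm1a had a log2 fold change of -0.22 and the corepressor gene Trim28 of -0.31, the latter 0.19 under quantile normalisation.

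Trophectoderm genes, which mark the outer layer of the blastocyst, gave 3 higher (Tfap2c, Tead4 and Ascl2) and 1 lower (Eomes) of 17 tested, with a median of 0.35. The calls of Ascl2 and Eomes were each lost in 3 of the 4 fits with 1 library left out. Tfap2c, a transcription factor shared by trophectoderm and naive stem cells, went from 35.1 and 38.5 to 207 and 126, and Tead4 from 127 and 130 to 344 and 319. Cdx2, the lineage's defining homeobox gene, was near its floor, with 1.75 and 3.75 in C1C3b and 7.54 and 31.8 in C1C3c, and was not called (limma adjusted p = 0.132). It was called in both edgeR fits, under quantile normalisation and with a pseudocount of 8. Among 16 primitive endoderm genes, 2 were lower, Gata6 and Sox17. Over all genes tested 7.66% were called lower, so this count is not read as a result about the list. Gata6 had 64.9 and 69.5 against 27.1 and 16.2, and Sox17 had 151 and 227 against 41.5 and 47.3. The call of Gata6 was lost in 3 of the 4 fits with 1 library left out and under quantile normalisation, and that of Sox17 without C1C3b replicate 2 or C1C3c replicate 1.

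C1C3b cells also held more RNA of genes that p53 activates after DNA damage or stress. Of 18 such genes, 6 were lower in C1C3c and 0 higher, with a median log2 fold change of -0.84. Plk2, a polo-like kinase (chromosome 13, 110395046 to 110400844), had 10558 and 13516 normalised reads in C1C3b and 1375 and 1505 in C1C3c, an 8.36-fold difference (log2 fold change -3.05, SE 0.208, limma adjusted p = 6.24e-07). Plk2 in C1C3c lay beside mCherry (1442 and 1446), C1+14 (1993 and 2030) and FL (1982 and 1783), whereas C3+14 lay beside C1C3b at 10994 and 11553. Pmaip1, the death-promoting NOXA gene, went from 3811 and 3501 to 599 and 1307, and Eda2r, a death receptor gene, from 8354 and 8935 to 3265 and 4243. Mdm2, which encodes the ubiquitin ligase that degrades p53, went from 4061 and 4657 to 2096 and 1809. Cdkn1a, the p21 gene, had 1522 and 2370 against 1179 and 998, a log2 fold change of -0.81 under the threshold. Bbc3, the PUMA gene, had 22.8 and 55.4 in C1C3b and 92.0 and 95.4 in C1C3c, in the other direction and not called.

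Of 13 immediate early genes, which respond within minutes to growth and stress signals, 5 were lower and 1 higher, with a median of -0.53. Jun went from 597 and 432 to 55.8 and 102 (log2 fold change -2.73, SE 0.317, limma adjusted p = 7.33e-05), Fosl2 from 122 and 173 to 12.1 and 19.6, and Fos from 90.3 and 116 to 21.9 and 43.3. These genes encode subunits of the AP-1 transcription factor. Without C1C3b replicate 2 or C1C3c replicate 1 the lower count was 3, the calls of Egr1 and Atf3 being lost, and the 1 higher call, of Zfp36, was lost in all 4 fits with 1 library left out. The sum over the list differed little, at 2278 and 2302 against 1923 and 1961.

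Of 14 heat shock genes 2 were lower, the stress-inducible Hspa1a and its twin Hspa1b, which are not independent of each other. Hspa1a went from 179 and 297 to 43.7 and 43.3, and Hspa1b from 347 and 485 to 109 and 87.2. Of 20 integrated stress response genes, 2 were lower (Atf3 and Mthfd2), with a median of -0.25. Neither call held in every fit with 1 library left out. Among 18 germline genes 2 were lower. Tdrd1, which acts in the piRNA pathway, had 776 and 1505 in C1C3b and 55.8 and 52.8 in C1C3c (log2 fold change -4.29, SE 0.494, limma adjusted p = 6.82e-05). FL cells had 281 and 171 of it, and C3+14 cells 766 and 863. Slc25a31, the ADP/ATP carrier of germ cells, went from 422 and 526 to 117 and 129. Over all genes tested, 11.2% were called and 7.66% were called lower. The counts of the heat shock, integrated stress response and germline lists are therefore not read as results about those lists.

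Among metabolic genes, those of glycolysis and cholesterol synthesis were called in small numbers. Over all genes tested 11.2% were called, so these counts are not read as results about the lists. The same holds for the housekeeping and nonsense-mediated decay lists below. Hk2, a hexokinase gene, was the 1 member called of 19 glycolysis genes and went from 2370 and 3110 to 8665 and 8395 (log2 fold change 1.65, SE 0.205, limma adjusted p = 0.000129). Of 21 cholesterol genes 2 were called, and Nsdhl, a sterol synthesis enzyme gene, went from 388 and 314.5 to 944 and 1184. Of 10 urea cycle and arginine genes tested, 2 were lower and 1 higher, with a median of -0.83. The lower genes were Arg2, whose values are given above, and Arg1, another arginase gene, at 11.4 and 7.51 against 0 and 1.35. The higher gene was Slc7a1, an arginine transporter gene, at 421 and 491 against 1452 and 682. The calls of Arg1 and Slc7a1 were lost without C1C3b replicate 1 or C1C3c replicate 1. Of 23 cyclin and cell cycle kinase genes limma called 0, with 10 at an unadjusted p under 0.05. DESeq2 and edgeR with the deposited size factors called 1 each and edgeR with TMM 0. The median was -0.03 and became 0.17 under quantile normalisation. Of 12 SR splicing factors limma, edgeR and DESeq2 called 0, with 4 at an unadjusted p under 0.05. Over all 21584 genes tested, 7331 had an unadjusted limma p under 0.05, so these counts alone say little about either list. Of 12 housekeeping genes 1 was called, the transferrin receptor gene Tfrc, at 4780 and 4043 against 9155 and 11058. The median of that list was -0.37, or -0.06 under quantile normalisation. In nonsense-mediated decay, the RNA surveillance pathway that human DUX4 is known to inhibit, Smg5 was the 1 gene called of 10, at 696 and 650 against 1538 and 1219, and the call was lost without C1C3b replicate 2 or C1C3c replicate 1.

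Replication-dependent histone genes, whose transcripts mostly lack poly(A) tails, gave 25 lower and 0 higher of 61 tested, with a median of -1.08. Hist2h3c2 went from 534 and 671 to 33.2 and 21.0 (log2 fold change -4.45, SE 0.347, limma adjusted p = 2.04e-06), and Hist1h4i from 166 and 256 to 40.7 and 37.2. The count was 17 under quantile normalisation, 13 without C1C3b replicate 2 and 13 without C1C3c replicate 2. Of the 71 histone genes found, 61 share sequence with other genes. Of 83 cytoplasmic ribosomal protein genes 1 was called, lower in C1C3c. However, 79 of the 83 had an unadjusted limma p under 0.05, against 7331 of all 21584 genes tested. Rplp1, for example, had a log2 fold change of -0.84 (limma adjusted p = 0.00038) and missed only the fold threshold. Log2 fold changes were negative for 81 of the 83, with a median of -0.68 and a range from -1.11 to 0.52. That median was -0.28 under quantile normalisation, with 76 negative, and -0.58 in edgeR with TMM, with 81 negative. Mitochondrially encoded genes, also abundant, had a median of -0.78, or -0.25 under quantile normalisation, where neither of the 2 calls was kept. In edgeR with TMM their median was -0.69.

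**Figure D5:**
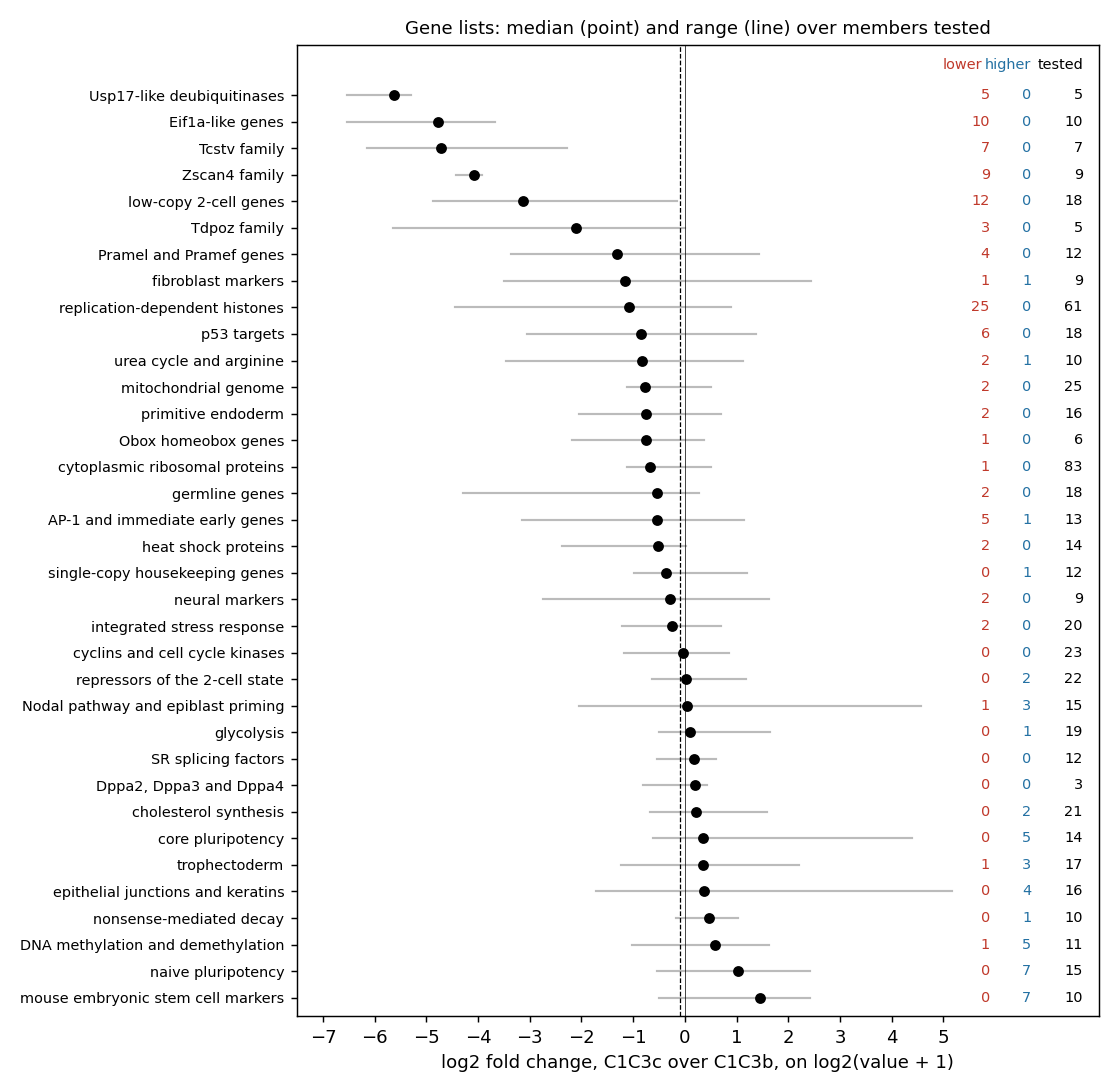
Median (point) and range (line) of the log2 fold change, C1C3c over C1C3b, over the tested members of each of 35 gene lists, with the numbers called lower, called higher and tested at the right and a dashed line at the median of all genes tested (-0.09). All lists of 2-cell genes but the Obox list lie at the top, with medians as low as -5.62, and stem cell markers lie at the bottom with 1.45. The Obox list has a median of -0.75.

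C1C3b was an extreme of the whole table for part of these genes. Of the 1654 genes lower in C1C3c, 479 had both C1C3b libraries above all 12 libraries of the other 6 groups (29.0%, against 9.50% of all genes tested), and 300 of the 479 were not called between FL and mCherry. Of the 761 genes higher in C1C3c, 276 had both C1C3b libraries below all others (36.3%, against 5.74%), and 149 of these were not called between FL and mCherry. These shares lean on the same C1C3b libraries as the calls and were not tested.

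The genes named next were chosen after their values were seen. Calb1, a calcium-binding protein gene, had 487 and 495 in C1C3b and 14.3 and 73.7 in C1C3c, while C3+14 had 92.1 and 104, and the libraries of mCherry, C1+14, C1C3a and FL lay between 1.32 and 15.5. Its log2 fold change of -3.86 was -2.72 without C1C3c replicate 1. Tmem178b had 126 and 298 against 11.3 and 22.3. Kitl, which encodes the ligand of the KIT receptor, had 246 and 340 against 32.4 and 69.0, a call lost without any 1 of 3 of the libraries. Rarg, a retinoic acid receptor gene, had 26.3 and 33.8 in C1C3b and 296 and 180 in C1C3c, and Gtsf1l, related to a piRNA pathway gene, had 30.7 and 20.7 against 161 and 118. Nanog was also among the genes lowest in C1C3b.

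The C1C3b libraries differed strongly from each other at a pair of long genes. Pappa, a secreted protease gene, had 2438 in replicate 1 and 28.2 in replicate 2, and Clstn2, a synaptic membrane protein gene, had 26.3 in replicate 1 and 2491 in replicate 2. Both were called lower in C1C3c, with log2 fold changes of -4.73 and -4.49, which were -1.54 and -1.24 without the library that was high.

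Fibroblast markers were low in both chimeras, while the neural list held more RNA. Of 12 fibroblast markers 9 were tested, 1 was lower (Lum) and 1 higher (Pdgfrb), neither of them called in every fit with 1 library left out. The sum over the list was 339 and 442 in C1C3b and 219 and 281 in C1C3c. Col1a1, a defining collagen gene, had 5.26 and 8.45 in C1C3b and 12.1 and 3.38 in C1C3c, and Twist2 had 0 reads in all 4 libraries. The markers Dcn, Twist2 and Prrx1 were too low to test. Of 9 neural markers tested, 2 were lower, and neither was called in every fit with 1 library left out. The sums of that list were 1444 and 1635 in C1C3b and 1248 and 1183 in C1C3c, and mCherry cells stood above both at 3465 and 3771. Nes, a member of that list, had means of 508 in C1C3b and 408 in C1C3c and was not called. Mir124a-1hg, the host gene of a neuronal microRNA, had 0 reads in both C1C3b libraries and 3.02 and 1.35 in C1C3c, against 224 and 249 in mCherry. Cps1, a urea cycle gene, was likewise high in mCherry, at 3812 and 3813, and not called between the chimeras, at 733 and 663 in C1C3b and 237 and 622 in C1C3c.

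The genes lower and higher in C1C3c also differed in kind. Genes sharing sequence with another gene made up 32.9% of the lower and 8.15% of the higher, against 24.1% of all genes tested, and annotated pseudogenes 16.9% and 2.50%, against 14.9%. Median exon length was 2576 bases for the lower, 3923 for the higher and 3225 for all genes tested. Both chimeras were counted in the same way, so reads placed on several copies were treated alike in the 2 groups. C1C3c was at the counting floor for 401 of the 1654 lower genes and C1C3b for 84 of the 761 higher genes. For these genes the fitted fold changes depend on the added count and are no bounds.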

How the data were processed

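A stranded mRNA kit was applied to 500 ng of total RNA, per the labels' protocols. Reads were trimmed with Trim Galore 0.5.0 and checked with FastQC, DESeq2 is named, and the build is mm10, per the submitters' processing notes; the aligner, the counting and its use of strand are not given in the sources used here. The deposited signal values are gene-level reads over a size factor for each library. Of 776818 values, 100% were whole multiples of 1 step per library (within 0.001 of a read), and the steps equalled median-of-ratios size factors, so whole reads were recovered. The table has 14 libraries in 7 groups of 2 and lists 55487 genes, 55141 with a symbol in GENCODE M21, which gives the gene coordinates. The 8 per-sample columns of the other table were not used here.

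The main test was limma 3.58.1 (R 4.3.3; lmFit, eBayes with a trend) on log2(value + 1), fitted to all 14 libraries because 2 replicates give few degrees of freedom, for genes of at least 10 in at least 2 libraries. The scale understates changes of low genes. Replicates differed beyond sampling noise (chi-square per gene 11.8 for C1C3b and 35.1 for C1C3c). A group with 3 reads or fewer in each library is at the floor, and folds against it use 3 reads per library and are given as "at least"; floors cover counting error only. Alternatives were edgeR 4.0.16 and DESeq2 1.42.0 on recovered reads, other pseudocounts, filters, sets of libraries and scalings. The fits were also run on simulated counts with the same dispersion for every gene and group. The real groups differed in spread, so that run is no check of the calls. RefSeq promoters run from 250 bases before to 50 after the start; 27025 symbols had one.

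The libraries compared, the gene lists, the rules and the alternatives were chosen with earlier results of these data known. Named genes are, beyond a fixed set, the 8 largest called changes in each direction among protein-coding genes (group mean 50 or more where higher), no overlap and no model name, the 3 largest of any kind, and up to 4 called members of each list; not every one is printed.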

Additional observations from a re-analysis of the deposited data

How the results depend on the processing

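Altogether 18 alternative settings were tried. The number of genes called went from 2415 to 4592 with no fold threshold (2935 lower, 1657 higher) and to 1567 without genes bearing a model name (929 lower). Without genes of shared sequence 1080 were lower, and quantile normalisation gave 1283 higher. Of the FL-induced genes, 506 were lower in C1C3c without genes of shared sequence and 430 without model names, in place of 1002. With 1 library left out, the counts ranged from 1449 to 2506 called, 936 to 1697 lower, 422 to 809 higher and 658 to 963 FL-induced genes lower, and 908 of the 2415 calls held in every such fit. A lone library is then assumed to vary like the other groups. Without C1C3b replicate 2, 936 were lower, and without C1C3c replicate 1, 1036 were lower and 422 higher. edgeR called 2486 with TMM and 2482 with the deposited size factors, and DESeq2 2358. With C1C3b and C1C3c fitted alone, limma called 1963. Replicate numbers pair nothing in the labels, and replicate differences of C1C3b and C1C3c correlated at 0.0189; with the replicate number as a block 2299 genes were called, 2266 of them shared. For named genes, 2201 of the values under alternatives kept their side of the threshold, 118 lost it and 6 gained it. Depth limits genes at the floor, where only bounds can be given.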
